A study of Homo sapiens with 1 sample.

Results

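NKX2-1-positive cells were the kept cells of the hHAR123 library in which at least 1 UMI of NKX2-1 was counted, where a UMI (unique molecular identifier) marks 1 captured RNA molecule. There were 214 such cells among 12239 kept cells (1.75%, exact 95% binomial interval 1.52 to 2.00%) and 14726 barcodes. A cell was kept when it had 2000 to 10000 detected genes, 1% to below 10% of its UMIs from mitochondrial genes, and fewer than 5 UMIs per 10000 from the sum of ANXA1, TFPI2 and CTGF, genes that mark contractile cells in this culture. Because the cells were selected on their NKX2-1 count, that count is given as a description, and no test was made on it.

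The scRNA-seq library was made from H9, a human embryonic stem cell line in wide use, of genotype WT (hHAR123), which carries the human form of HAR123, a human accelerated region. They were on the way to neural progenitor cells (NPCs) after a first phase with Dorsomorphin and SB431542, inhibitors of the BMP and the TGF-beta branch of SMAD signalling, and were collected ahead of rosette selection. Independent clones were pooled into 1 library, so there was 1 group with no replicate, the clones could not be told apart, and no p-value is given. All intervals below cover counting error only, and cells of 1 library are not replicates of a condition.

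NKX2-1 encodes a homeodomain transcription factor. In the developing brain it marks the ventral forebrain, namely the medial ganglionic eminence, which gives rise to many cortical interneurons, and the hypothalamus. Its expression there depends on Sonic hedgehog secreted from the ventral midline. Outside the brain it is required for the lung and the thyroid, where it drives surfactant and thyroglobulin genes.

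The gene (ENSG00000136352) lies on the minus strand of chromosome 14, at chr14:36516392-36521149 of GRCh38 in GENCODE 44. SFTA3 (ENSG00000229415, chr14:36473288-36513829), a long noncoding RNA also named NANCI, is its neighbour on the same strand, with 2562 bp between both spans. RefSeq places a start of SFTA3 at the same base as a start of NKX2-1, and GENCODE holds readthrough transcripts that join exons of both, so a molecule from such a transcript could be counted under either name. The antisense RNA NKX2-1-AS1 overlaps NKX2-1 over 1872 bp, but the 3' kit keeps strand and Cell Ranger at its default settings counts reads on the strand of the gene. MBIP (ENSG00000151332, chr14:36298564-36320637), which encodes a subunit of the ATAC histone acetyltransferase complex, is 195.8 kb downstream. The sequence before the shared start of NKX2-1 and SFTA3 and that before MBIP are shown because SFTA3 and MBIP had the highest ratios in the selected cells among the other genes of the locus list with 20 or more UMIs. The first is the stretch of the promoter window at chr14:36519694-36519806 that no annotated UTR covers, and the second is chr14:36320638-36320887, both read on the minus strand from the RefSeq promoter table (GRCh38.p14).
NKX2-1 and SFTA3: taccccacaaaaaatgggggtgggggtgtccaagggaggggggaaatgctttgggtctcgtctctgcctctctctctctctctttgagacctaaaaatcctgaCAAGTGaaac
MBIP: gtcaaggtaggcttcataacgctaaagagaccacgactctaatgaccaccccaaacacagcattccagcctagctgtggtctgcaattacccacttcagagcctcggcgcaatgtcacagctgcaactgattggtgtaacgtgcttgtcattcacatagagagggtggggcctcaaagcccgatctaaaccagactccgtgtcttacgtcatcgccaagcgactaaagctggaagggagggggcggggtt
Capitals mark CAAGTG, a core that NKX2 factors bind. Besides this motif, 2 more were searched on both strands. TAATTA is a homeodomain core, and the sequence GACCACCCA is bound by the GLI factors of the hedgehog pathway. The NKX2 core and the homeodomain core each occurred 1 time in the whole 250-base window before the shared start, and none of the 3 motifs occurred in the MBIP window or in the window before the other NKX2-1 start in the table. Of 34943 such windows, 9.51% held the NKX2 core, 4.35% the homeodomain core and 0.200% the GLI sequence, so single matches to the shorter motifs are common.

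The selected cells held 325 NKX2-1 UMIs. Of the 214 cells, 149 (69.6%) had 1 UMI, just inside the rule, and 65 had 2 or more. Those 65 cells held 176 of the UMIs (54.2%). Only 23 cells had 3 or more and 9 had 4 or more, and the highest count was 9. Per 10000 UMIs of the cell, the NKX2-1 level ran from 0.186 through a median of 0.679 to 3.56. The RNA was thus sparse even where it was found. The 12025 kept cells just outside the rule had 0 UMIs.

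The share of positive cells did not climb steadily with depth, the total UMIs of a cell. Over 5 equal depth classes of the kept cells, from a median of 11091 to 30603 UMIs, it was 1.80%, 1.18%, 1.88%, 1.96% and 1.92%. After each cell was thinned to 5000 UMIs, 69 of 12225 cells (0.564%, 0.439 to 0.714%) kept an NKX2-1 UMI. The 1497 barcodes taken out by the limit on ANXA1, TFPI2 and CTGF gave a reference from other barcodes, deep ones (median 48483 UMIs, against 16983 in kept cells) set apart by contractile genes. Whether NKX2-1 UMIs there came from free RNA or from the cells themselves was not tested. There, 11 barcodes had an NKX2-1 UMI (0.735%, 0.367 to 1.31%), at 0.198 counts per 1000000 UMIs (CPM), against 1.37 CPM in the kept cells. None of the 1496 such barcodes deep enough for thinning kept a UMI. No positive barcode was found among 189 barcodes with under 1% mitochondrial UMIs, which allows a share of up to 1.59%, or among 520 with fewer than 2000 genes, which allows up to 0.577%. How many of the 149 cells with 1 UMI took it from free RNA was not tested.

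To compare levels, 10 NKX2-1-negative kept cells were drawn per positive cell within depth classes, which gave 2140 matched cells. The median depth was 17909.5 UMIs in positive and 17910.5 in matched cells, the median number of detected genes was 5658 and 5584, and the median mitochondrial share was 4.94% and 5.15%. A level is the summed UMIs of a gene or list in CPM, and a ratio is the level in positive cells over that in matched cells, with its exact 95% conditional interval. Of 10005 genes at 10 CPM or more over both groups, 26 were at least 1.5-fold higher in positive cells (0.26%) and 68 were at least 1.5-fold lower (0.68%). The matched cells give most UMIs to this limit, so a gene can pass through them alone, but hardly through the positive cells alone. The median ratio was 1.00, and 0.822 to 1.21 spanned the ratios from the 5th to the 95th percentile.

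Apart from NKX2-1 itself, SFTA3 had the highest ratio of the genes in the lists used here that had 20 or more UMIs over both groups. The positive cells held 135 SFTA3 UMIs (31.0 CPM) and the matched cells held 30 (0.696 CPM), a ratio of 44.6 (29.8 to 68.6). SFTA3 was detected in 67 of 214 positive cells (31.3%, 25.2 to 38.0%) and in 1.17% of the matched cells. The share climbed with the NKX2-1 count. It was 1.03% (124 of 12025) in cells with 0 UMIs, 20.8% (31 of 149) with 1, 45.2% (19 of 42) with 2, 57.1% (8 of 14) with 3, and 100% (9 of 9, 66.4 to 100%) with 4 or more. With cells thinned to 5000 UMIs the order was the same, at 0.250%, 8.11%, 16.7%, 28.6% and 66.7%. Cells with 1 NKX2-1 UMI thus had SFTA3 more often than cells with none, although their median depths were close (17847 and 16956 UMIs). The antisense RNA NKX2-1-AS1 had 5 UMIs in positive and 0 in matched cells.

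**Figure D1:**
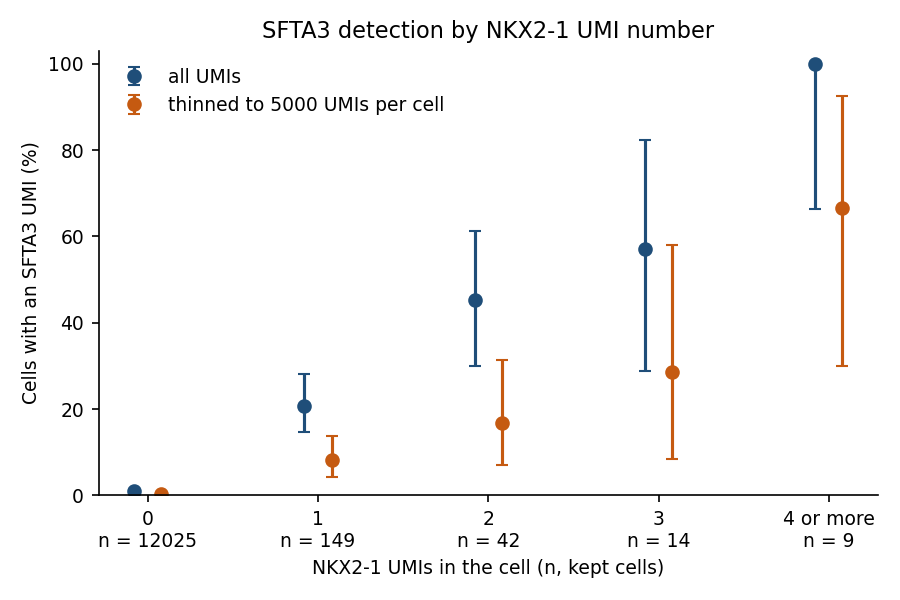
Share of kept cells with an SFTA3 UMI (y axis, percent) by the number of NKX2-1 UMIs in the cell (x axis, n is the number of cells), for all UMIs and after thinning each cell to 5000 UMIs; bars are exact 95% binomial intervals. The share goes from 1.03% at 0 UMIs to 100% in the 9 cells with 4 or more.

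The 9 cells with 4 or more NKX2-1 UMIs show this cell by cell. The cell with 9 NKX2-1 UMIs (30649 UMIs in all) had 5 SFTA3, 7 MBIP and 23 SOX2 UMIs. The cell with 7 had 1 SFTA3, 5 MBIP and 9 SOX2 UMIs. Every one of the 9 cells had UMIs of SFTA3, MBIP and SOX2, with 1 to 10 for SFTA3 and 5 to 8 for MBIP. TLL1, a tolloid protease that cleaves the BMP antagonist Chordin, had 12 and 13 UMIs in the first 2 of these cells, 6 in another, and 0 or 1 in the rest.

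MBIP also had a higher level in the positive cells, at 183 CPM against 105 CPM in matched cells, a ratio of 1.73 (1.61 to 1.87). It was detected in 92.1% and 79.6% of the cells. The median count per cell was 3 against 2 UMIs, and 35.5% of positive but 10.6% of matched cells had 5 or more. The difference was therefore spread over many cells, and the ratio without the single cell with most MBIP was 1.72. Of the list of 8 genes fixed for the NKX2-1 locus, 4 reached 10 CPM and 1 of them, MBIP, was past 1.5-fold and higher, as 0.26% of all genes were. SLC25A21, a mitochondrial oxodicarboxylate carrier on the other side of NKX2-1, had a ratio of 1.11 (1.02 to 1.19), MIPOL1 1.07 (0.976 to 1.18) and BRMS1L, a subunit of the SIN3 complex, 0.972 (0.809 to 1.16). The list as a whole had a ratio of 1.33 (1.27 to 1.39), and of 1.26 (1.20 to 1.31) when SFTA3 was left out, a choice made after the data were seen. Within 2 Mb of the NKX2-1 start, 13 of 48 listed genes reached 10 CPM, with ratios from 0.900 to 1.73 and a median of 1.05. PAX9 and NKX2-8, which lie on the other side of NKX2-1 from SFTA3, had 0 UMIs in the positive cells. The 10 times as many matched cells held 4 and 1, too few to compare.

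**Figure D2:**
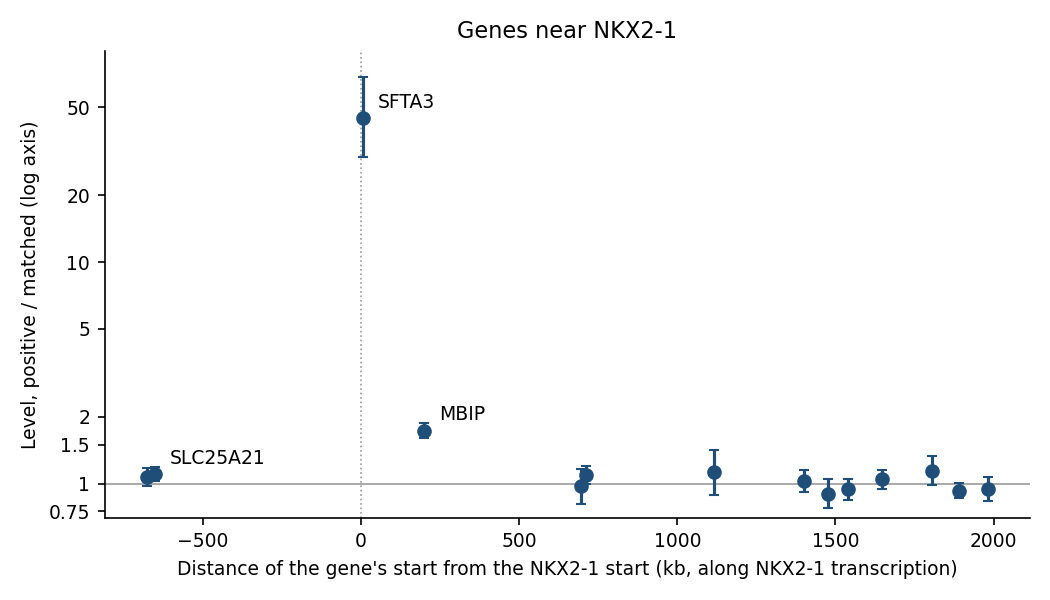
Ratio of levels between NKX2-1-positive and matched cells (y axis, log scale) against the distance of each gene's start from the NKX2-1 start in kb along the direction of NKX2-1 transcription (x axis), for SFTA3 and the 13 genes at 10 CPM or more within 2 Mb; bars are exact 95% conditional intervals. SFTA3 (44.6) and MBIP (1.73) stand above the other genes, which lie between 0.900 and 1.14.

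The working name of these cells was ventral-like, and the ventral lists did not bear it out. Of the 16 ventral telencephalic genes, 6 had 0 UMIs in the positive cells, among them LHX6 and LHX8, LIM-homeodomain factors that act after NKX2-1 in the medial ganglionic eminence, and GSX1, OLIG1, OLIG2 and ISL1. These genes had only 1 to 4 UMIs each in the 2140 matched cells, so their zeros do not separate both groups. The list's summed level was 32.6 CPM in positive and 44.2 CPM in matched cells, a ratio of 0.739 (0.619 to 0.877). DLX5, a homeobox gene of the ganglionic eminences, made up most of it, with 21.4 against 27.8 CPM and a ratio of 0.769 (0.616 to 0.950). GAD2, which makes the transmitter GABA, had 9 UMIs in positive and 166 in matched cells (ratio 0.537, 0.241 to 1.04). Only DLX1, DLX2 and NKX6-2 lay above the matched cells, with 2 or 3 UMIs each and intervals that included 1.

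The hypothalamic and ventral diencephalic list, with 15 genes, had a ratio of 0.694 (0.609 to 0.789). Its 10 genes at 0 UMIs in the positive cells included NKX2-4, the closest relative of NKX2-1, and OTP, SIM1 and NR5A1, factors of hypothalamic neurons, but the matched cells held only 0, 0, 4 and 9 UMIs of these 4 genes. FEZF1 held 231 of the list's 254 UMIs in positive and 3242 of 3623 in matched cells, so the list ratio is nearly that of this gene. FEZF1, a zinc finger factor of the early rostral forebrain, was at 53.1 against 75.2 CPM (0.706, 0.615 to 0.807). RAX, an eye-field and hypothalamic homeobox gene, had 8 UMIs in positive and 175 in matched cells (0.453, 0.192 to 0.912). Of the 11 genes of both lists with 20 or more UMIs over positive and matched cells, 7 in the first list and 4 in the second, none had a ratio above 1. The cells are therefore called NKX2-1-positive cells here, without a regional name. None of the 6 NKX2 paralogs searched (NKX2-2, NKX2-3, NKX2-4, NKX2-5, NKX2-6 and NKX2-8) had a UMI in positive cells, against 8 in the 10 times as many matched cells. The interval of their ratio ran from 0 to 5.80, so no difference was detectable.

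**Figure D3:**
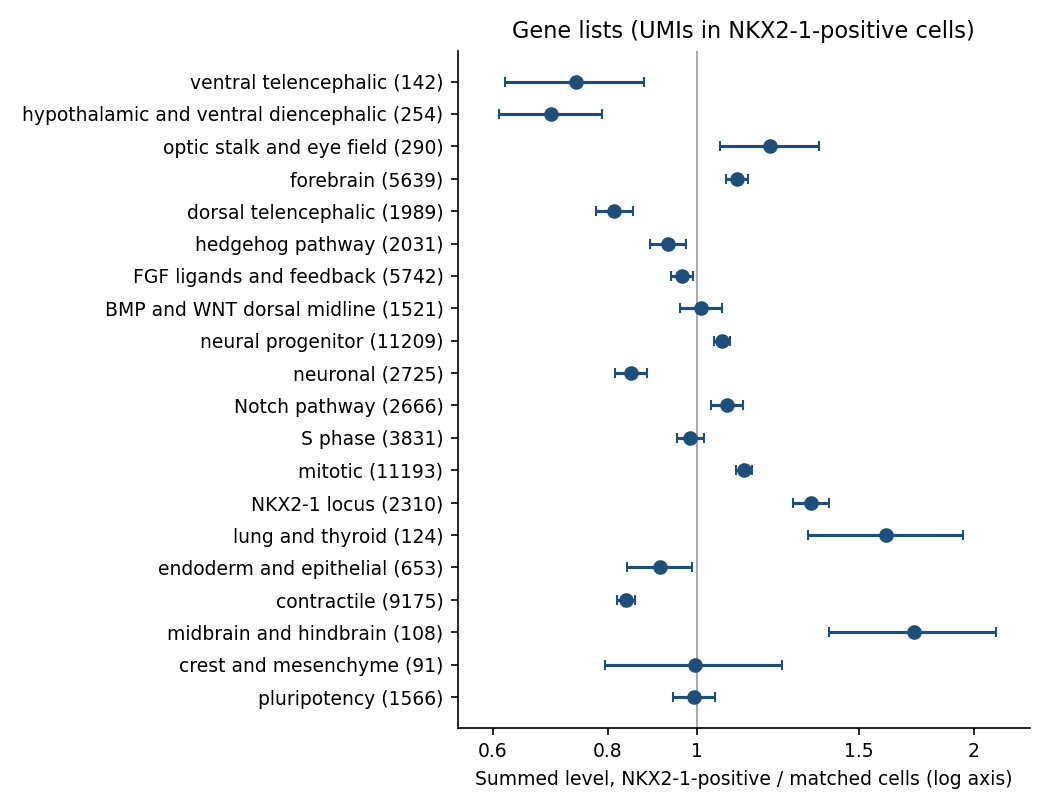
Ratio of the summed level of each gene list between NKX2-1-positive and matched cells (x axis, log scale; 1 means equal levels), for the fixed lists with at least 50 UMIs in positive cells (UMIs in brackets); bars are exact 95% conditional intervals. Both ventral lists lie below 1 (0.739 and 0.694), while the NKX2-1 locus list (1.33) and the lists that hold PAX8 (1.61 and 1.72) lie above it.

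Like the matched cells, the positive cells carried markers of forebrain progenitors. SIX3, a rostral homeobox factor, was detected in 98.1% of them (95.4% of matched cells), at 369 against 330.4 CPM (ratio 1.12, 1.06 to 1.18). OTX2, another such factor, was detected in 85.1% and 77.9% of the cells (ratio 1.18, 1.07 to 1.29). The forebrain list of 8 genes had a ratio of 1.11 (1.08 to 1.14), but OTX1 had 7 UMIs in positive and 289 in matched cells (0.240, 0.0956 to 0.501). SOX2, the pan-neural progenitor factor, was found in 100% of positive and 98.1% of matched cells. The neural progenitor list of 9 genes had a ratio of 1.06 (1.04 to 1.09), and its highest members were HES5, a Notch effector (1.19, 1.11 to 1.27), and FABP7, a fatty-acid-binding protein of radial glia (1.17, 1.13 to 1.22). Without the limit on ANXA1, TFPI2 and CTGF the ratio of the neural progenitor list turned, to 0.927 (0.911 to 0.944). The 23 genes of the forebrain, neural progenitor and Notch lists that reached 10 CPM had ratios from 0.758 to 1.19.

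Dorsal telencephalic genes had lower levels, with a list ratio of 0.814 (0.777 to 0.852) over 14 genes. EMX2 was at 42.7 against 58.5 CPM (0.731, 0.626 to 0.848), PAX6 at 45.5 against 55.7 CPM (0.816, 0.703 to 0.944) and GLI3, the hedgehog antagonist of the dorsal forebrain, at 351 against 415 CPM (0.845, 0.802 to 0.890). Below 10 CPM, EMX1 had 2 UMIs in positive and 167 in matched cells (0.119, 0.0143 to 0.435), and DMRTA2 had 3 and 151 (0.197, 0.0401 to 0.586). Only WNT3A of this list had a ratio above 1, with 2 UMIs in positive and 1 in matched cells. EOMES, TBR1 and NEUROG1, which mark the excitatory neuron lineage, had 0 UMIs in positive cells and 85, 33 and 34 in matched cells. Those UMIs lay in only 14, 14 and 11 of the 2140 matched cells (0.654%, 0.654% and 0.514%), and 0 of 214 cells allows a share of up to 1.40%, so a difference was not detectable at this number of cells. The 4 genes of this list that reached 10 CPM had ratios from 0.731 to 0.845. Positive cells therefore differed from matched cells on the dorsal list in the same direction as on the ventral lists.

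The optic stalk and eye field list lay above the matched cells (1.20, 1.06 to 1.36). VAX1, a homeobox factor of the optic stalk and ventral forebrain, was found in 51.9% of positive and 51.0% of matched cells, with a ratio of 1.13 (0.988 to 1.30). By SFTA3, VAX1 over matched cells was 1.525 (1.24 to 1.85) in positive cells with an SFTA3 UMI and 0.943 (0.787 to 1.12) in those without. Its paralog VAX2 had 35 UMIs in positive and 167 in matched cells (2.08, 1.40 to 3.00), and was detected in 14.5% and 7.38% of the cells. After thinning, these VAX2 shares were 2.35% and 1.82%. Between positive cells with and without an SFTA3 UMI, the VAX2 ratio was 0.713 (0.294 to 1.57).

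Hedgehog pathway genes were examined because that pathway acts above NKX2-1 in the embryo. SHH itself had 1 UMI in positive and 4 in matched cells, and its target GLI1 had 1 and 12. PTCH1, the receptor and a target of the pathway, was at 32.4 against 24.7 CPM (1.31, 1.09 to 1.57), and HHIP, a target that binds the ligand, had 42 and 275 UMIs (1.51, 1.07 to 2.10), with 28.6% of its UMIs in 1 positive cell. The co-receptors went the other way, with ratios of 0.817 (0.739 to 0.902) for CDON, 0.767 (0.684 to 0.858) for BOC and 0.657 (0.496 to 0.855) for GAS1, whose genes are themselves lowered by hedgehog signalling in the neural tube. SMO, SUFU and GLI2 had ratios of 1.07, 1.03 and 1.02, with intervals that included 1. The list of 15 genes had a ratio of 0.931 (0.889 to 0.974), and 1 of its 7 genes at 10 CPM or more, GAS1, was past 1.5-fold and lower, as 0.68% of all genes were. With 2 or more NKX2-1 UMIs required, the list ratio was 0.924 (0.852 to 1.00), and without the limit on ANXA1, TFPI2 and CTGF it was 0.994 (0.952 to 1.04). Between cells with 2 or more and with 1 NKX2-1 UMI, the intervals of 5 of these 7 genes included 1, and the other 2 are given. Among the 65 cells with 2 or more NKX2-1 UMIs, PTCH1 was at 42.0 CPM and BOC at 53.7 CPM, against 27.6 and 86.9 CPM in cells with 1 UMI (ratios 1.52, 1.07 to 2.15, and 0.618, 0.473 to 0.799). By SFTA3, PTCH1 over matched cells was 1.88 (1.44 to 2.41) in positive cells with an SFTA3 UMI and 1.04 (0.810 to 1.31) in those without, while for the other 6 of the 7 genes the interval of the ratio between these groups included 1.

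FGF genes (ratio 0.963, 0.938 to 0.990, and 1.01 without the limit on ANXA1, TFPI2 and CTGF) and the BMP and WNT list of the dorsal midline (1.01, 0.958 to 1.07) lay close to the matched cells. The second list was below them when 2 or more NKX2-1 UMIs were required (0.863, 0.783 to 0.950), and at 0.944 (0.890 to 1.00) without cells above 40000 UMIs. In the second list LEF1, a nuclear effector of WNT signalling, was at 32.2 against 21.0 CPM (1.53, 1.27 to 1.83), and RSPO1, a secreted WNT enhancer below 10 CPM over both groups, had 58 and 342 UMIs (1.68, 1.25 to 2.22). Other genes of it went the other way. BMP7 was at 48.5 against 60.2 CPM (0.805, 0.697 to 0.927), AXIN2 had 13 and 214 UMIs (0.602, 0.315 to 1.05) and RSPO3 11 and 182 (0.599, 0.294 to 1.10). Of the 4 genes of this list at 10 CPM or more, 2 were above 1. Mitotic genes were slightly higher, at 1.13 (1.10 to 1.15) for the list, with 9 of 10 genes above 1 and AURKA the highest (1.32, 1.17 to 1.49). S-phase genes were not (0.984, 0.951 to 1.02). The mitotic ratio depended on the cells compared, at 1.10 (1.08 to 1.12) with another draw of matched cells and 1.16 (1.14 to 1.19) against all negative cells. The median ratio of all genes was 1.00. The Notch list had a ratio of 1.08 (1.04 to 1.12), with HES1 at 1.17 (1.07 to 1.27) and the ligand DLL1 at 0.758 (0.607 to 0.936).

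The neuronal list of 10 genes had a ratio of 0.848 (0.816 to 0.882), but its genes did not all go one way. SYT1 held 2312 of the list's 2725 UMIs in positive cells and 26078 of 31813 in matched cells. The list ratio is thus close to that of SYT1 (0.878, 0.841 to 0.916). STMN2, a tubulin-binding protein of young neurons, had 32 UMIs against 990 in the matched cells (0.320, 0.218 to 0.455), and INA, a neurofilament protein, 42 against 776 (0.536, 0.383 to 0.731). MAPT, the microtubule protein tau, lay above the matched cells with 37 and 233 UMIs (1.57, 1.08 to 2.23), and TUBB3, a neuronal tubulin, had 22 and 186 (1.17, 0.717 to 1.83). The share of cells with an STMN2 UMI was nevertheless close, at 11.7% of positive and 11.9% of matched cells. No positive cell had more than 3 STMN2 UMIs, while 1.22% of matched cells had 5 or more, with a highest count of 93. That share is under the 1.40% that 0 of 214 cells allows, so a difference in the share of such cells was not detectable. The part of those few matched cells in the STMN2 ratio was not tested. NEUROD1 had 0 and 59 UMIs, the latter in 15 matched cells (0.701%), under the 1.40% that 0 of 214 cells allows.

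The lung and thyroid list asked whether the cells had the partners of NKX2-1 outside the brain. Of its 11 genes, 5 had 0 UMIs in positive cells, among them the surfactant gene SFTPC and the thyroid factors FOXE1 and HHEX, which had 0 in matched cells too, and TG, thyroglobulin, had 1. PAX8, a paired-box factor of thyroid and kidney that is also transcribed at the midbrain-hindbrain border, made up most of this list. It had 102 UMIs in positive and 550 in matched cells, 23.4 against 12.8 CPM (1.84, 1.47 to 2.27), and was detected in 16.8% and 12.3% of the cells. The other midbrain and hindbrain genes had too few UMIs to compare. PAX5 had 2 UMIs in positive and 39 in matched cells, IRX3 had 4 and 23 (1.72, 0.433 to 5.04), and EN1, EN2, GBX2 and the 3 HOX genes of the list had 0 in positive cells and at most 7 in matched cells.

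The remaining marker lists of other cell types were read in the same way. The endoderm and epithelial list had a ratio of 0.912 (0.840 to 0.988, and 0.952, 0.877 to 1.03, with another draw of matched cells), the crest and mesenchyme list 0.996 (0.794 to 1.24) and the pluripotency list 0.994 (0.943 to 1.05), so the intervals of the last 2 included 1. SOX17, GATA4 and GATA6, which define endoderm, had 0 UMIs in positive cells and 0, 13 and 9 in the 10 times as many matched cells, so no difference was detectable. POU5F1 had 1 and 4. The contractile list was lower (0.837, 0.820 to 0.855), with TAGLN, an actin-binding protein, at 324 against 496 CPM. Its ratio depended on the cells compared, at 0.893 with another draw of matched cells, 0.897 against all negative cells, 0.780 without cells above 40000 UMIs and 0.603 without the contractile limit. TAGLN over matched cells was 0.892 in positive cells with an SFTA3 UMI and 0.535 in those without, and ACTA2, smooth muscle actin, 1.38 and 0.452. A single positive cell held 19.0% of the TAGLN UMIs, and the values without it are not given. Of the 10 genes of the contractile list, 3 (ANXA1, TFPI2 and CTGF) belong to the rule that kept cells. The part of this difference in the other ratios was not tested. Over all 21 lists, 91 of 216 genes reached 10 CPM, with a median ratio of 0.982 against 1.00 for all genes. LEF1, MBIP and PAX8 were past 1.5-fold and higher (3.30%, against 0.26% of all genes). GAS1, STMN2, INA, TAGLN, CNN1 and CTGF were past it and lower (6.59%, against 0.68% of all genes). These names depend on the 10 CPM limit, to which the matched cells give most UMIs. STMN2, INA and CNN1 were under it in positive cells and passed through the matched cells, while SFTA3 and RSPO1 were over it in positive cells only and did not pass.

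To name further genes without reading them in the cells that picked them, the 214 positive and the matched cells were divided by alternating order into 2 sets. Each set held 107 positive and 1070 matched cells, and depth was not matched again within a set. Median depth was 17825 UMIs in positive and 18178.5 in matched cells of set 1, and 18111 and 17617 in set 2. The 10 genes with the highest ratio and the 10 with the lowest were taken in set 1, among 7703 genes at 20 CPM or more over both groups, and read in set 2. The matched cells give most UMIs to this limit. A lower gene can thus pass through the matched cells alone, while SFTA3, at 31.0 CPM in positive cells, did not pass. Both sets are cells of the same library, so this separates counting error and not biological replicates. In set 2, 8 of the 10 higher genes were again above 1, 6 with an interval clear of 1 and 4 past 1.5-fold, and their median ratio went from 1.86 to 1.34. Of the 10 lower genes, 9 were again below 1, 6 with an interval clear of 1 and 2 past 1.5-fold, and the median went from 0.418 to 0.815. Over all 214 positive cells, the median ratio of 10005 genes was 1.00, and 0.26% were past 1.5-fold and higher and 0.68% lower. Shares of all genes within 1 set alone are not given, so the counts in either set lack that background.

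Genes that kept a high ratio in set 2 were ALCAM, an immunoglobulin-family cell adhesion molecule (2.32, 1.96 to 2.74), NTN1, the guidance factor netrin-1 (2.09, 1.69 to 2.58), MYO16, an unconventional myosin of neural cells (1.71, 1.39 to 2.10), and NPAS3, a bHLH-PAS transcription factor (1.56, 1.48 to 1.64). ANKS1B, a scaffold protein of synapses, had a ratio of 1.47 (1.31 to 1.65) in set 2, and KCNQ3, a potassium channel subunit, 1.20 (1.03 to 1.38). FAM83D, CASC2, PGM2 and DGKI lay between 0.930 and 1.08 there, with intervals that included 1. On the lower side, ERBB4, a neuregulin receptor, was at 0.416 (0.294 to 0.574) in set 2, STMN2 at 0.462 (0.275 to 0.731) and DCC, a netrin receptor, at 0.689 (0.583 to 0.810). AL133346.1 (0.712), PAX7 (0.812), a paired-box factor, and TAGLN (0.859) were also below 1 with intervals clear of it. TFPI, CTGF and PEX3 were below 1 with intervals that included it, and ACAD9 was at 1.21 (0.908 to 1.59). Over both sets, STMN2 (7.35 CPM), PEX3 (15.9), ERBB4 (16.5), AL133346.1 (17.7) and ACAD9 (18.6) were under 20 CPM in positive cells. These genes passed the limit through the matched cells.

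**Figure D4:**
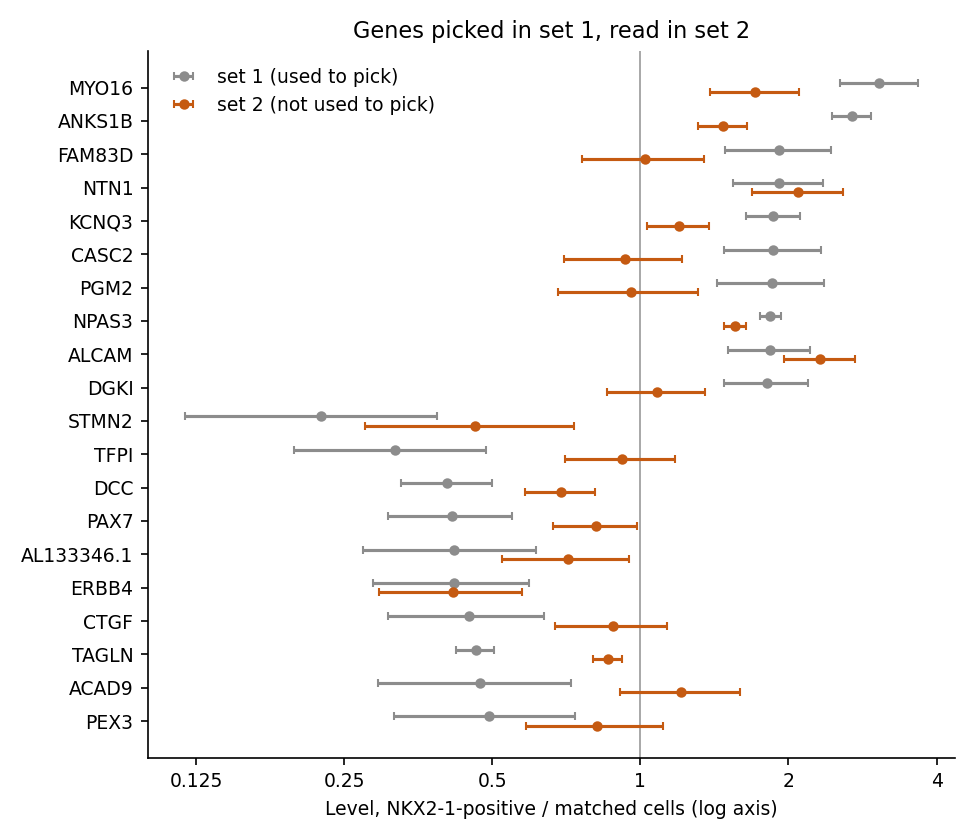
Ratio of levels between NKX2-1-positive and matched cells (x axis, log scale) for the 20 genes picked in set 1 (grey) and the same genes in set 2 (orange), each set with 107 positive cells; bars are exact 95% conditional intervals. ALCAM, NTN1, MYO16, NPAS3, ANKS1B and KCNQ3 stay above 1 in set 2, and ERBB4, STMN2 and DCC stay below it.

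Over all 214 cells, ALCAM was at 69.6 against 33.3 CPM and was detected in 45.8% of positive and 30.9% of matched cells. NTN1 was at 49.6 against 24.9 CPM and in 44.4% and 28.3% of the cells. MYO16 was at 61.6 against 26.6 CPM and in 43.5% and 27.1%. For these 3 genes the difference was thus seen in the number of cells with the RNA. NPAS3 was found nearly everywhere, in 98.6% and 95.5% of the cells, at 798 against 472 CPM, with a median of 11 against 7 UMIs per cell. ANKS1B was at 213 against 104 CPM, but 1 positive cell held 90 of its 928 UMIs (9.70%), and the ratio of 2.06 (1.92 to 2.21) was 1.87 without that cell. ERBB4 was at 16.5 against 39.6 CPM and in 14.5% and 23.3% of the cells. DCC was at 57.9 against 106 CPM with close shares of cells (36.0% and 41.5%), and its highest count was 20 UMIs in a positive and 128 in a matched cell.

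With the sets exchanged, ALCAM, NTN1 and MYO16 were again among the 10 higher genes and ERBB4 again among the 10 lower. The other higher genes picked in set 2 were AC022140.1, PAPPA, RASGRP1, MBIP, NRDE2, DPP6 and RBFA, and read in set 1 MBIP had a ratio of 1.76 (1.58 to 1.96), AC022140.1 1.78 (1.49 to 2.12), RASGRP1 1.62 (1.28 to 2.03) and PAPPA, a protease that frees IGF from its binding proteins, 1.59 (1.32 to 1.90). NRDE2, DPP6 and RBFA were between 0.971 and 1.20 with intervals that included 1. MBIP was thus named without the use of its position. Of the 10 lower genes, 8 were again below 1 in set 1 and 4 had intervals clear of it, while ISPD was at 1.32 (1.00 to 1.71) and INPP4B at 1.17 (0.952 to 1.43). Among those that held, NECTIN3-AS1 was at 0.518 (0.398 to 0.664) in set 1 and DMRTA1, a doublesex-related factor of the cortex, at 0.668 (0.445 to 0.966). Over both sets DMRTA1 was at 9.88 CPM in positive and 21.5 CPM in matched cells, so it passed the 20 CPM limit through the matched cells. Of the other lower genes picked in set 2, EPHA3 (12.2 CPM), AC044810.3 (13.6), GAS1 (13.6), RHOH (15.6) and ERBB4 (16.5) were also under 20 CPM in positive cells. They passed the limit in the same way.

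Levels are also given by NKX2-1 count, as a description, since that count chose the cells. Cells with 2 or more NKX2-1 UMIs had a median depth of 19463 UMIs, against 17847 in cells with 1 UMI. MYO16 was at 91.5 CPM in the former and 46.6 CPM in the latter (ratio 1.97, 1.54 to 2.52), NPAS3 at 1049 and 673 CPM (1.56, 1.46 to 1.67), ALCAM at 94.3 and 57.3 CPM (1.65, 1.30 to 2.08) and MBIP at 215 and 167 CPM (1.29, 1.11 to 1.49). Of the 10 higher genes of set 1, 8 were above 1 in this comparison, with a median ratio of 1.48, and of the 10 higher genes of set 2, 7 were, with a median of 1.13. The cells compared here include those that picked the genes, and 51.0% of all 10005 genes were above 1. Of the lower genes, 7 of 10 were above 1 for set 1 (median 1.25) and 5 of 10 for set 2 (median 0.977). The cells with 1 UMI were above the matched cells, at 1.58 (1.44 to 1.74) for MBIP, 1.78 (1.62 to 1.95) for ANKS1B and 1.88 (1.57 to 2.25) for NTN1. They are most of the positive cells, and the genes were picked in positive over matched cells, so these ratios are a description only. STMN2, among the lower genes of set 1, was lower still with 2 or more UMIs, at 2.75 and 9.66 CPM (0.285, 0.0727 to 0.815). TAGLN ran the other way from its ratio over all positive cells, at 415 CPM with 2 or more NKX2-1 UMIs and 278 CPM with 1 UMI (1.495, 1.34 to 1.66), and 1 positive cell held 19.0% of its UMIs. The group of that cell and the TAGLN ratio without it are not given, so this direction could rest on 1 cell. All 8 contractile genes at 10 CPM or more were above 1 in this comparison, 6 with an interval clear of 1, as against 51.0% and 5.78% of all 10005 genes, and the part of contractile RNA in the differences by NKX2-1 count was not tested.

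Cells with SFTA3 but without NKX2-1, a group chosen after the data were seen, were read for the same genes. There were 124 kept cells with an SFTA3 UMI and no NKX2-1 UMI (median 19064.5 UMIs), compared with 1240 cells of matched depth with neither. MBIP was at 163 against 105 CPM in them (1.55, 1.40 to 1.71), ALCAM at 50.6 against 35.0 CPM (1.45, 1.20 to 1.73), ANKS1B at 143 against 102 CPM (1.41, 1.27 to 1.57) and NPAS3 at 575 against 488 CPM (1.18, 1.12 to 1.24). PAX8 was at 22.6 against 12.7 CPM (1.78, 1.33 to 2.33). NTN1 (1.03, 0.791 to 1.31) and KCNQ3 (0.982, 0.844 to 1.14) were close to the matched cells, and STMN2 was above them (1.71, 1.35 to 2.15). ERBB4 (0.624, 0.485 to 0.792) and DCC (0.723, 0.626 to 0.831) were below, and so was TAGLN (0.641, 0.603 to 0.682). Of the 10 higher genes of set 1, 7 were above 1, with a median of 1.18, and of the 10 lower, 8 were below 1, with a median of 0.737. For the genes picked in set 2, 9 of the 10 higher were above 1 (median 1.26) but only 6 of the 10 lower were below it (median 0.950). The share of all genes on either side of 1 in these cells is not given, so these counts cannot be set against it.

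**Figure D5:**
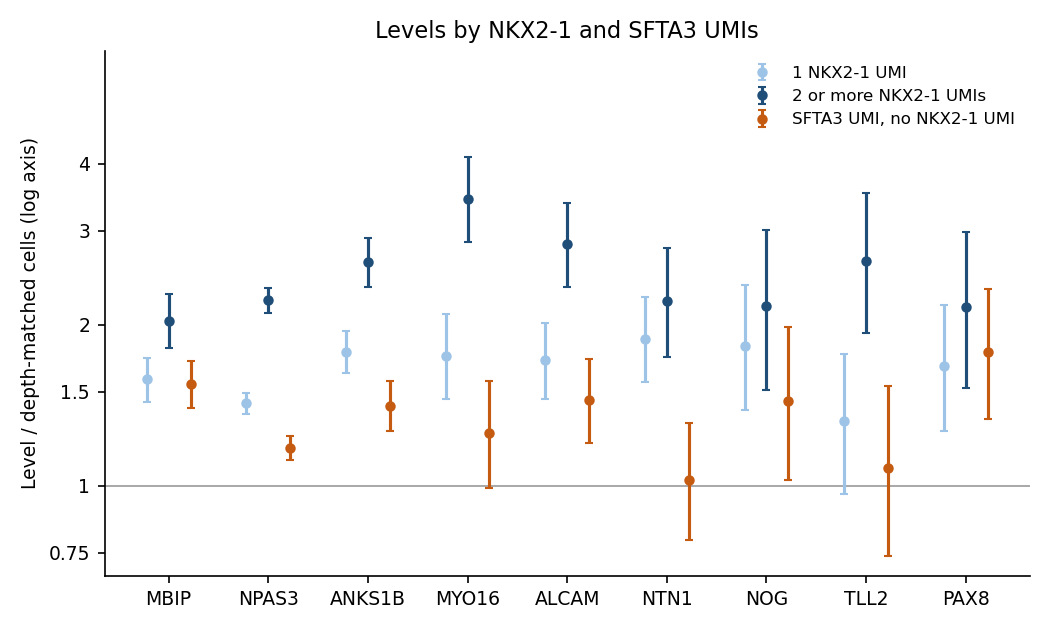
Ratio of levels (y axis, log scale) for 9 genes in cells with 1 NKX2-1 UMI (149 cells) and with 2 or more (65 cells), each over the cells matched to all positive cells, and in cells with an SFTA3 but no NKX2-1 UMI (124 cells) over their own matched cells; bars are exact 95% conditional intervals. MBIP is above 1 in all 3 groups, at 1.58, 2.04 and 1.55, while for NTN1 (1.88, 2.21 and 1.03) the interval of the third group includes 1.

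Within the positive cells, the 67 with an SFTA3 UMI (median 19339 UMIs in all and 2 of NKX2-1) were set against the 147 without (17869 and 1). MBIP was at 194 and 177 CPM (1.10, 0.943 to 1.27). NPAS3 was at 1141 and 632 CPM (1.81, 1.69 to 1.93), MYO16 at 99.8 and 43.0 CPM (2.32, 1.81 to 2.97), NTN1 at 64.7 and 42.3 CPM (1.53, 1.15 to 2.02) and ANKS1B at 265 and 188 CPM (1.41, 1.23 to 1.61). The cells without SFTA3 were above the matched cells for MBIP (1.68, 1.53 to 1.84), ALCAM (1.82, 1.55 to 2.13) and MYO16 (1.62, 1.33 to 1.94). These cells also belong to those that picked the genes, so the ratios are a description only. Contractile genes also differed by SFTA3, with all 8 at 10 CPM or more above 1 and 7 of them clear of it (51.4% and 5.2% of all genes), as in TAGLN at 443 and 266 CPM (1.67, 1.499 to 1.85) and ACTA2 at 58.3 and 19.1 CPM (3.05, 2.15 to 4.36). A single positive cell held 267 of the 1408 TAGLN UMIs (19.0%), and the TAGLN ratio without it is not given. PAX6 (0.606, 0.424 to 0.849) and PAX7 (0.5999, 0.404 to 0.871) were lower with SFTA3. Their part in the other differences was not tested.

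The positive cells were also set against kept cells chosen by the eye-field genes RAX and SIX6 and by PAX3, a dorsal paired-box gene. Of the 1367 kept cells with a RAX or SIX6 UMI (median 21736 UMIs), 15 were NKX2-1-positive. That is 7.01% of the positive cells (3.98 to 11.3%), against 10.7% of matched cells, and 1.10% of the RAX or SIX6 cells. Of the 379 kept cells with a PAX3 UMI, 6 were NKX2-1-positive (2.80% of positive cells against 3.74% of matched cells, and 1.58% of the PAX3 cells). In the RAX or SIX6 cells without NKX2-1, the levels were 0.332 CPM for SFTA3, 94.5 CPM for MBIP, 16.3 CPM for MYO16 and 48.5 CPM for ERBB4, and in the PAX3 cells without NKX2-1 they were 0.476, 95.8, 26.7 and 25.8 CPM. The NKX2-1-positive cells had 31.0, 183, 61.6 and 16.5 CPM for the same genes.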

How the data were processed

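One 10x Genomics 3' library of hHAR123 cells (H9, genotype WT, differentiated to NPCs) was analysed. The authors deposited raw UMI counts per gene and barcode (33538 genes), which they made with Cell Ranger 7.0.1 on GRCh38, per the submitters' processing notes. Those notes also list Seurat 4.4.0. Default settings were used, which count sense reads and include introns. The annotation version is not given in the sources used here. All barcodes carried 1 suffix, so loading wells could not be told apart. Depth was 327640709 UMIs in all and 3947 to 75462 per positive cell.

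From these deposited counts, cells were kept and positive cells chosen by the limits given in the report. No doublet caller was run, and the upper gene limit was the only step against doublets. Matched cells were drawn with a fixed seed within 20 depth classes, 10 per positive cell. Levels carry exact Poisson intervals, shares Clopper-Pearson intervals and ratios exact conditional intervals, at 95%. With 1 library no test was run. Where no UMI was found in a group, the upper limit is that of 3 counts. Thinning drew 5000 UMIs per cell without replacement and left out 14 kept cells. Genes named were those of 21 fixed lists (216 genes) with 20 or more UMIs over both groups or that define a list, and the 10 highest and 10 lowest in set 1. Genes picked with the sets exchanged are named as an alternative, and ALK, FGF12, ACTC1, C1orf61 and CLSTN2 were chosen after their values were seen. Another 3 lists with 27 genes, the SFTA3 groups and the locus list without SFTA3 were chosen after seeing the data. The members and all lists were chosen with earlier results of these data known. FGF15, a mouse name, matched no listed gene. The ratio script was tested on simulated data. The scripts ran in Python 3.11.15 with pandas 2.3.3, scipy 1.17.1, matplotlib 3.10.9 and numpy 2.4.6. Gene spans came from GENCODE 44, and promoter windows from RefSeq. Values of some listed genes are not reported here.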

Additional observations from a re-analysis of the deposited data

Results flagged for a closer look

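Signal of the selecting gene and of its neighbour was present in barcodes that the comparison does not use. Barcodes taken out by the limit on ANXA1, TFPI2 and CTGF held 15 NKX2-1 UMIs in 11 of 1497 barcodes, at 0.198 CPM. Barcodes with more than 10000 genes held 7 NKX2-1 UMIs in 4 of 94 barcodes (4.26%, 1.17 to 10.5%), at 0.711 CPM and a median depth of 103907 UMIs. NKX2-1-negative kept cells held 139 SFTA3 UMIs in 124 of 12025 cells. Doublets and free RNA among these barcodes were not tested.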

How the results depend on the processing

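Across 248 values under alternatives, 198 stayed within the counting interval of the value reported (1.5 times for counts of genes and for the leading genes), 48 moved beyond it, and 2 whose interval had been clear of 1 changed direction. Some of those that stayed could not change. The SFTA3 share of positive cells does not use matched cells, so other draws of them left it as it was. The NKX2 paralog ratio was 0 throughout because positive cells held no such UMI. Another 12 list ratios crossed 1 from a value whose interval included 1. Without the contractile limit (225 positive cells), the neural progenitor ratio became 0.927 and the FGF ratio 1.01. The same change gave ratios of 0.867 for the dorsal telencephalic, 0.994 for the hedgehog and 1.41 for the NKX2-1 locus list, and 183 genes past the fold and lower. With 2 or more NKX2-1 UMIs required (0.531% of kept cells), ratios were 0.555 for the hypothalamic, 0.756 for the dorsal telencephalic and 1.52 for the locus list, the SFTA3 share was 55.4%, and 176 genes were past the fold and higher and 353 lower, where the 65 cells give fewer UMIs per gene. Thinning to 5000 UMIs gave 0.736 for the dorsal telencephalic and 0.837 for the hedgehog list, shares of 13.6% for SFTA3 and 0.564% for NKX2-1 (0.319% at 2500 UMIs), and 183 and 397 genes higher and lower. Leaving out cells above 40000 UMIs gave 45 higher genes. A 2-fold limit gave 5 and 9 genes, 30 CPM gave 10 and 22, and no level limit above 20 UMIs gave 961 and 1777. The ventral telencephalic ratio was 0.670 to 0.784 over all alternatives (0.784 when thinned, with an interval of 0.532 to 1.12 that includes 1), the hypothalamic 0.555 to 0.770 and the locus ratio 1.31 to 1.52. No paired analysis was possible because there is 1 library. Depth limits the text most for genes under 10 CPM, where 1 UMI in positive cells is 0.230 CPM.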

Other observations

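Another 3 gene groups were read after the data were seen, because single genes of them had high ratios. Among BMP antagonists and tolloid proteases, 5 of 12 genes reached 10 CPM, and the list had a ratio of 1.16 (1.08 to 1.23). NOG, the BMP antagonist Noggin, was at 23.4 against 12.1 CPM (1.94, 1.55 to 2.40) and in 34.6% against 20.7% of the cells. FST, Follistatin, was at 18.2 against 10.8 CPM (1.68, 1.31 to 2.14), and the tolloid protease TLL2 at 23.0 against 13.1 CPM (1.76, 1.41 to 2.18). CHRDL1, another antagonist, was under 10 CPM (57 and 343 UMIs, 1.65, 1.22 to 2.18). TLL1 had 66 and 182 UMIs (3.59, 2.67 to 4.79), and the ratio was 2.90 without the positive cell that held 19.7% of them. TWSG1 (0.995) and FSTL1 (0.860) were not above the matched cells.

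Among netrins and their receptors, the ligand NTN1 was above the matched cells and the receptors DCC and UNC5C (0.732, 0.666 to 0.804) and UNC5D (0.876, 0.804 to 0.953) were below, while NEO1, Neogenin, was at 1.07 (0.986 to 1.16). NTN4 was at 1.15 (0.945 to 1.40). The list as a whole was at 0.883 (0.846 to 0.921).

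In the endothelin system, the receptor EDNRB had 75 UMIs in positive and 350 in matched cells (2.12, 1.63 to 2.73) and was found in 22.4% and 12.01% of the cells. The ligand EDN3 had 13 and 53 UMIs (2.43, 1.22 to 4.52), and EDN1 19 and 405 (0.465, 0.277 to 0.735). The list ratio was 1.09 (0.927 to 1.27).

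ALK, a receptor tyrosine kinase, and FGF12, an intracellular FGF-family protein, were outside every list and are named for their values, with ratios of 2.21 (1.75 to 2.76) and 2.01 (1.64 to 2.44). At the other end were ACTC1, cardiac actin (0.355, 0.232 to 0.520), C1orf61 (0.367, 0.231 to 0.556) and CLSTN2, a synaptic calsyntenin (0.393, 0.255 to 0.580). These genes were picked and read in the same cells, so their intervals do not allow for the choice, and no reading in a second set is given. The matched cells give most UMIs to the 10 CPM limit, so a lower gene can pass it through them alone.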
